A study of Mus musculus with 4 samples.

Results

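The genes described here belong by name to families of histone methyltransferases, demethylases and deacetylases, and of nucleosome remodelers with their subunits. The measurement is where m6A (N6-methyladenosine, a methyl mark on adenosine inside mRNA) lies along their transcripts in mouse brain. The genes were chosen by symbol alone, as the protein-coding genes of the annotation outside chromosome Y whose names start with Kmt2 or Kmt5, Kdm1 to Kdm8, Setd, Hdac or Smarc, together with Chd1 to Chd9. The choice gave 68 of 21683 genes. There were 18 lysine methyltransferases (Kmt2, Kmt5 and Setd genes), 17 lysine demethylases (Kdm), 11 histone deacetylases (Hdac), 9 chromodomain helicases (Chd) and 13 genes of SWI/SNF-related remodelers (Smarc).

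The series held 4 samples of whole brain of C57BL/6J mice at 4 weeks of age, listed as total RNA, with 2 m6A immunoprecipitation (IP) libraries and 2 input libraries. The design text gives the animals as Prrc2a flox/flox, so every sample carried the floxed Prrc2a allele, and no Cre driver is named for them. The methods of the study call the replicates biological, and how many animals stood behind each is not stated. Each IP replicate came with a list of peaks called against its own input, and each peak had a start, an end and a fold enrichment, the linear ratio of IP over input. There was 1 group and no treatment, hence no test between groups, and every value below is a description. Read numbers were not in the lists, so that the depth is unknown, and the 95% Wilson intervals given for shares cover counting error only. As a check of the tissue, shared intervals were found over 5 of 5 neuron, 3 of 3 astrocyte, 3 of 3 oligodendrocyte and 2 of 2 microglia marker genes. Among 5 genes of other organs only the heart muscle gene Myh6 had a shared interval, and the liver genes Alb and Apoa1, Cd3e of T cells and Ins2 of pancreas had none. In whole brain RNA, fewer cells of a type and less RNA per cell cannot be told apart, and a gene with little RNA yields few peaks whatever its methylation.

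As background, m6A is placed on pre-mRNA in the nucleus by the Mettl3 and Mettl14 methyltransferase complex, mostly at GGAC and related sequences, is removed by Fto and Alkbh5, and is read by proteins that change the stability, splicing or translation of the mRNA. It is known to favour long internal exons and the region around the stop codon. Many of the enzymes described here are needed for brain development, and mutations in several of them cause intellectual disability or autism in people. Several of their mRNAs hold single coding exons of unusual length.

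Sequences are shown first for the best-enriched sites. Matched pairs of peaks were ranked by the smaller of their replicate values, and the 10 highest, counting each gene once, lay in Setd1b, Hdac4, Kmt5b, Chd6, Chd8, Chd2, Kdm5a, Setd2, Chd9 and Smarca4. In 5 of the 10 shared intervals (the bases covered by a peak of both replicates) the pentamer GGACT, the DNA letters of the m6A consensus GGACU, was present on the strand of the transcript. For 4 of these, the site nearest to the middle is printed with 10 nt on either side, with GGACT in capitals, from mouse build GRCm38 and 5′ to 3′ on the transcript. The adenosine of the capitals is a candidate position only, since a peak does not resolve single bases.
Kmt5b, exon 13, codon 666, chr19:3814922-3814946 (+): tgagccacacGGACTctgctccctc
Chd8, exon 38, codon 2561, chr14:52198647-52198671 (-): gctcagaacgGGACTtctcactcat
Kdm5a, exon 28, 3′ UTR, chr6:120439291-120439315 (+): aaagatgaatGGACTtcagaaaaag
Chd9, exon 40, codon 2718, chr8:91051456-91051480 (+): aggcatgggaGGACTcctgtcaaag

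The intervals of Hdac4, Chd6, Chd2, Setd2 and Smarca4 held no GGACT, which says only that these 5 letters are not in that window. The opposite case was Kmt2b, the H3 lysine methyltransferase also known as Mll2 or Mll4, whose exon 28 carried the member interval with most GGACT. This exon of 1300 nt held 7 GGACT, and all 7 lay in 1 interval with a fold enrichment of 4.13 in replicate 1 and 2.81 in replicate 2. They are printed in the same way to show how closely such sites follow each other within 1 long coding exon. Kmt2b was singled out for this count after the values were seen.
Kmt2b codon 1910, chr7:30575564-30575588 (-): tgggagactcGGACTttccagctcc
Kmt2b codon 1990, chr7:30575323-30575347 (-): ggtggtgtcaGGACTaagtgctgct
Kmt2b codon 1997, chr7:30575303-30575327 (-): ctgctgacctGGACTttgcagccag
Kmt2b codon 2005, chr7:30575280-30575304 (-): agcctgctggGGACTgagcctttcc
Kmt2b codon 2088, chr7:30575031-30575055 (-): cggggacaggGGACTcctccttcag
Kmt2b codon 2139, chr7:30574877-30574901 (-): gccccagagaGGACTctcttccttc
Kmt2b codon 2238, chr7:30574581-30574605 (-): cccacctcctGGACTctgcccccag

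Nearly all of these genes carried m6A peaks. Of the 68 genes, 61 (89.7%) had at least 1 shared interval over their exons, where 45.5% of all protein-coding genes did. Taken alone, replicate 1 gave a peak in 63 of the 68 genes (54.3% of all genes) and replicate 2 also in 63 (49.5% of all genes). By family, a shared interval was present in 15 of 18 methyltransferases, 16 of 17 demethylases, 10 of 11 deacetylases, 9 of 9 Chd genes and 11 of 13 Smarc genes. A matched pair enriched at least 2-fold in each replicate was found in 50 genes (73.5%), against 36.6% of all genes. That stricter count separated the families more, with 9 of 9 Chd genes, 14 of 18 methyltransferases and 14 of 17 demethylases, but 8 of 13 Smarc genes and 5 of 11 deacetylases. The transcripts were long (median 5174 nt, against 2558 nt over all genes), and longer transcripts offer more room for a peak.

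Only 7 genes were without a shared interval. Setd6 and Setdb2, both SET-domain methyltransferases, and Hdac10 had no peak in either list. Setd4 had 2 peaks in replicate 1 alone, with fold enrichments of 3.36 and 1.96, and Smarca1, the ISWI-type ATPase Snf2l, had 3 in replicate 1 alone, between 1.65 and 2.06. Kdm8 had 1 peak in replicate 2 alone, at 3.80, and Smarcb1, a core subunit of the BAF complex, had 1 in replicate 2 alone, at 1.93. A missing peak does not show a lack of m6A, because the depth and the expression of these genes are unknown here.

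The number of shared intervals per gene ran from 0 to 13 with a median of 3, and 25 of the 68 genes (36.8%) had 5 or more, against 4.23% of all genes. Chd5, a neuronal chromodomain helicase, and Kmt2a (Mll1), which methylates H3 at active promoters, had 13 each. Chd3, Kmt2d and Smarca2 had 11 each, Chd2 and Kmt2c had 10, Setd1a and Smarca4 had 9, and Chd4, Chd6 and Smarcc2 had 8. Per family the genes with 5 or more were 9 methyltransferases, 8 Chd genes, 5 Smarc genes, 2 demethylases (Kdm2a and Kdm3b) and 1 deacetylase (Hdac5). Scaled to transcript length, the density was 0.679 shared intervals per kb, against 0.337 over all genes. The latter value also counts the transcripts of genes without a shared interval, and only 45.5% of all genes had one. The Chd genes had 0.913 per kb and the Smarc genes 0.911, followed by the methyltransferases with 0.690, the deacetylases with 0.569 and the demethylases with 0.393. The demethylases had the lowest density although their median transcript of 5180 nt was longer than that of the Smarc genes (3991 nt). These densities count intervals, and a run of adjacent short exons can give 1 interval per exon, as in Chd5. By the share of transcript bases in shared intervals the order was another. It was 31.2% in the methyltransferases, 26.6% in the Chd genes, 16.8% in the Smarc genes, 13.8% in the demethylases and 11.1% in the deacetylases. For the 68 genes together it was 22.2%, against 11.3% over all genes.

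**Figure D1:**
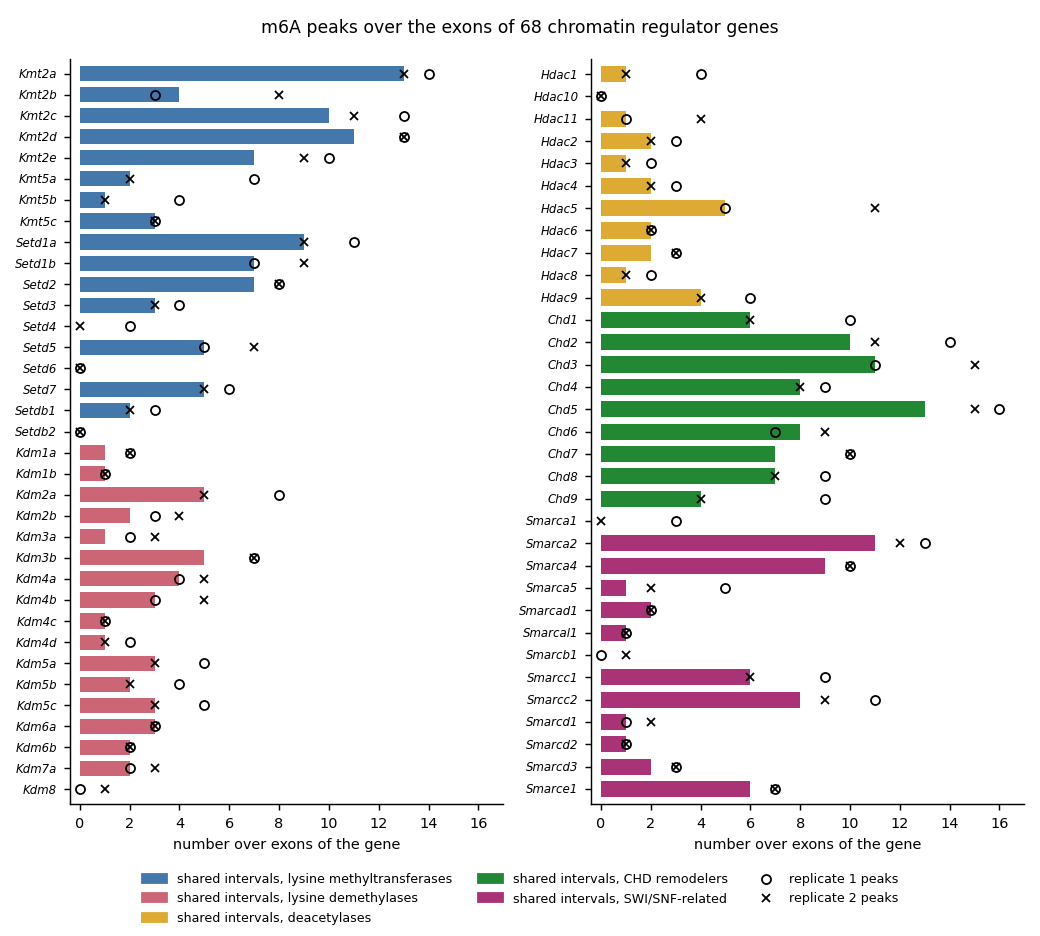
Number of m6A peaks over the exons of each of the 68 genes, with bars for shared intervals coloured by family, open circles for replicate 1 peaks and crosses for replicate 2 peaks. Chd5 and Kmt2a reach 13 shared intervals, and Hdac10, Setd4, Setd6, Setdb2, Kdm8, Smarca1 and Smarcb1 have none.

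Both replicates gave similar lists over these genes. Replicate 1 had 359 peaks over their exons, of which 259 (72.1%, 67.3 to 76.5) overlapped a replicate 2 peak. Replicate 2 had 326 peaks, of which 269 (82.5%, 78.0 to 86.3) overlapped a replicate 1 peak. Over all genes these shares were 68.4% and 76.8%. Peaks found once were weaker, with a median fold enrichment of 2.14 against 3.14 for shared peaks in replicate 1, and 1.82 against 2.18 in replicate 2. Internal coding exons under 400 nt held the largest class of both kinds of peak, but with unequal shares. They held 65 of the 100 unshared peaks of replicate 1 and 98 of its 259 shared peaks (37.8%), and in replicate 2 they held 34 of 57 unshared (59.6%) and 109 of 269 shared peaks (40.5%). Internal coding exons of 400 nt or more held 6 unshared and 63 shared peaks in replicate 1, and 1 and 70 in replicate 2. The overlaps yielded 271 shared intervals (median 339 nt), 3 of them over exons of several genes. A wide peak of one replicate that overlaps several narrow peaks of the other counts several times, and the number fell to 153 when peaks under a fold enrichment of 2 were left out.

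The position on the transcript differed by family. The midpoints of 247 of the 271 intervals could be placed on an exon of the representative transcript (the one with the longest coding sequence), and 200 of them (81.0%, 75.6 to 85.4) lay in the coding sequence (CDS), against 61.8% over all genes. The 3′ UTR held 33 (13.4%, against 28.9%) and the 5′ UTR 14 (5.67%, against 9.26%). Within 200 nt of the stop codon on either side lay 30 (12.1%, 8.64 to 16.8), against 22.9% over all genes. Each transcript has a single such window, and these genes had longer coding sequences (median 3288 nt, against 1188 nt over all genes). As counts, 30 midpoints fell there over 68 genes and 4519 over 21683 genes, of which 61 and 9865 had a shared interval. The lower share thus does not mean fewer midpoints there per gene. Per kb of sequence the CDS of these genes had 0.715 midpoints and their 3′ UTRs had 0.329, against 0.344 and 0.209 over all genes. Per kb, the 3′ UTRs of these genes thus held more midpoints than those of all genes, although their share of all midpoints was lower. The densities over all genes also count the sequence of genes without a shared interval, and only 45.5% of all genes had one.

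Among the methyltransferases, 46 of 88 placed intervals lay in internal coding exons of 400 nt or more. Among the Chd genes 42 of 67, and among the Smarc genes 27 of 39, lay in internal coding exons under 400 nt. The demethylases had 10 of 37 in internal coding exons under 400 nt and 10 of 37 in longer ones. They placed 13 of 37 in the 3′ UTR and 11 of 37 (29.7%, 17.5 to 45.8) within 200 nt of the stop codon, while the methyltransferases placed 5 of 88 (5.68%, 2.45 to 12.6) there. The deacetylases had 9 of 16 in internal coding exons under 400 nt and 4 of 16 (25%, 10.2 to 49.5) in the 5′ UTR, in Hdac5, Hdac6 and Hdac8. The Chd genes had 0 of 67 in the 5′ UTR, for which the upper Wilson bound is 5.42%. The 5′ UTRs took up 2557 nt in the Chd genes together and 2791 nt in the deacetylases. Intervals of Chd3, Chd4 and Chd5 did reach into the 5′ UTR, without a midpoint there. The exons on offer differed as well. Of the 60 internal exons of 400 nt or more in these genes, 31 belonged to methyltransferases, 13 to demethylases, 11 to Chd genes, 4 to Smarc genes and 1 to a deacetylase. An interval midpoint fell in 29 of the 31, 9 of the 13, 11 of the 11, 2 of the 4 and 0 of the 1.

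**Figure D2:**
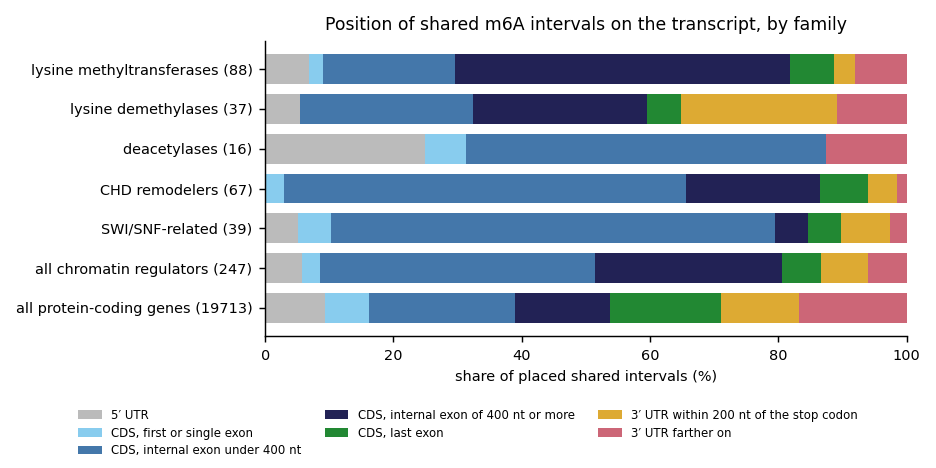
Share of placed shared intervals (%, horizontal axis) in 7 position classes for each family, for all 68 chromatin regulators and for all protein-coding genes, with the number of intervals in brackets. Internal exons of 400 nt or more lead in the methyltransferases, shorter internal exons lead in the Chd, Smarc and deacetylase genes, and the demethylases have the widest segment next to the stop codon.

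The presence of an interval rose with exon length. Of the internal exons of these genes, a shared interval midpoint fell in 72 of 1213 under 200 nt (5.94%), in 35 of 195 from 200 nt to under 400 nt (17.9%), in 27 of 36 from 400 nt to under 1000 nt (75%) and in 24 of 24 of 1000 nt or more. Over all genes the shares were 2.34%, 6.61%, 43.9% and 67.5%. The same rise was thus present throughout the transcriptome, at lower levels. When only genes with a shared interval were counted, the shares were 6.32%, 18.4%, 81.8% and 100% for the chromatin regulators and 4.15%, 11.8%, 68.1% and 89.7% for all such genes. For 1000 nt or more, the interval of the members (86.2 to 100) overlapped that of all genes with a shared interval (87.5 to 91.6), so that 24 of 24 is not set apart from them. From 400 nt to under 1000 nt the intervals overlapped as well (65.6 to 91.4 and 66.2 to 70.0). Those of the shorter classes did not. These intervals cover counting error only and treat exons of 1 gene as independent, so that this is no test of a difference. Under 200 nt the families also differed, with 12.5% in the Chd genes and 8.84% in the Smarc genes. The other families had 4.23% (methyltransferases), 3.89% (deacetylases) and 0.719% (demethylases). Taking 400 nt or more together, 51 of 60 exons (85%, 73.9 to 91.9) held an interval, against 49.7% over all genes. Last exons of 1000 nt or more held one in 33 of 41 cases (80.5%, 66.0 to 89.8), against 45.7% over all genes, and in 8 of 8 Chd and 9 of 9 methyltransferase genes with such an exon. Counted only in genes with a shared interval, the shares were 82.5% and 80.2%, hence alike. Last exons from 400 nt to under 1000 nt held one in 4 of 18 cases (22.2%), against 26.6% over all genes, and in 26.7% against 62.9% among genes with a shared interval.

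**Figure D3:**
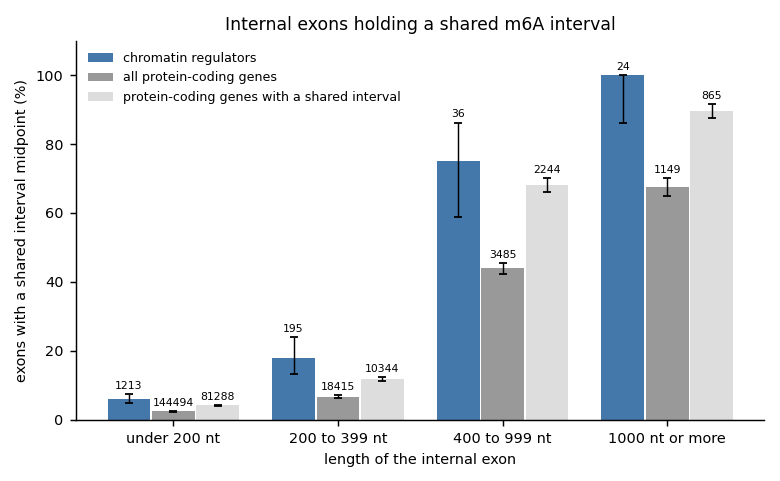
Share of internal exons (%, vertical axis, from 0) that hold the midpoint of a shared interval, by exon length, with 95% Wilson intervals and the number of exons above each bar. In the chromatin regulators the share goes from 5.94% under 200 nt to 24 of 24 exons of 1000 nt or more.

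The 24 exons of 1000 nt or more belonged to 13 genes. There were 2 in Kmt2a, 2 in Kmt2b, 4 in Kmt2c, 6 in Kmt2d, 1 in Setd1a, 2 in Setd1b, 1 in Setd2, and 1 each in Kdm3b, Kdm6b, Chd6, Chd7, Chd8 and Chd9. The largest was exon 3 of Setd2, the methyltransferase of transcribed gene bodies, with 4286 nt and 4 intervals, followed by exon 27 of Kmt2a with 4237 nt and 5 intervals. Shared intervals covered between 13.7% and 100% of each exon, with a median of 62.0%. Setd1a exon 14 was covered from end to end, Kdm3b exon 8 to 95.4% and Kmt2d exon 49 to 86.9%, while Kmt2c exon 38 was covered to 13.7%, Kmt2d exon 32 to 22.9% and Chd9 exon 3 to 24.7%. In 22 of the 24 exons the highest peak of either list was enriched at least 2-fold. The other 2 were Kmt2c exon 52 (3.43 in replicate 1 and 1.93 in replicate 2) and Kmt2d exon 32 (4.26 and 1.68). In Kmt2a exon 27 a single replicate 1 peak of 2854 nt overlapped 4 replicate 2 peaks, so that the covered share describes these exons better than the count of intervals.

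From 400 nt to under 1000 nt, 9 of 36 exons held no midpoint. They lay in Setd4, Setdb2, Kdm2b (exon 19), Kdm5a (exon 23), Kdm5b, Kdm8, Hdac6, Smarca4 (exon 4) and Smarcc2. A peak of 1 replicate touched 4 of these exons, those of Kdm2b, Kdm5a, Kdm5b and Smarcc2, and no peak touched the other 5. Setd4, Setdb2 and Kdm8 had no shared interval over any exon, but Smarca4 had 9 and Hdac6 had 2 elsewhere. The paralog Smarca2 did have an interval in its own exon 4, of 462 nt, with 1.36 in replicate 1 and 1.92 in replicate 2, where exon 4 of Smarca4 has 405 nt.

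Short exons with an interval were mostly in the Chd and Smarc genes. Under 200 nt, 32 of 256 Chd exons (12.5%) and 19 of 215 Smarc exons (8.84%) held a midpoint, against 12 of 284 methyltransferase exons (4.23%), 7 of 180 deacetylase exons (3.89%) and 2 of 278 demethylase exons (0.719%, 0.198 to 2.58). In all 72 cases the interval was longer than the exon (median 336.5 nt against 133 nt), and a median of 38.2% of it lay in the exon. In 60 of the 72 the interval covered that 1 exon and neighbouring intron, and in 12 it covered 2 or more exons. Over all genes 88.7% of such intervals covered 1 exon and intron only. No peak in either list was shorter than 200 nt, so that every peak over such an exon reached beyond it.

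Within the Kmt2 family, the intervals of Kmt2a (8 of 13 placed), Kmt2b (3 of 4), Kmt2c (8 of 10) and Kmt2d (9 of 11) lay mainly in internal exons of 400 nt or more. Kmt2e (Mll5), a more distant relative, has a single internal exon of that length, and had 1 of 7 there and 4 in shorter internal exons. Its highest pair was in the coding part of the last exon, with 5.32 in replicate 1 and 3.14 in replicate 2. In Kmt2a the 3′ UTR held 3 intervals, at 3.67 and 2.23 beside the stop codon, at 4.06 and 2.54 in the middle, and at 1.65 and 3.09 farthest on, where replicate 2 was the higher. Kmt2d had 1 in its 3′ UTR and Kmt2c had 0. The representative transcript of Kmt2c ends at 14771 nt from the start codon and its coding sequence at 14714 nt. Its annotated 3′ UTR thus left little room for a midpoint. Setd1a and Setd1b, the catalytic subunits of the other H3 lysine methyltransferase complexes of this type, had 4 of 8 and 4 of 7 in long internal exons. Kmt5b and Kmt5c, which act on histone H4, had their highest pair in the coding part of the last exon, with 4.45 and 4.24 for Kmt5b and 5.32 and 2.42 for Kmt5c.

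Within the Chd family, Chd1 to Chd5 have no internal exon of 400 nt or more in their representative transcripts. In Chd2, whose loss causes epilepsy, 9 of 10 lay in shorter internal exons, in Chd5 10 of 12, in Chd3 7 of 9, and in Chd1 and Chd4 4 of 5 each. Chd6 has 3 internal exons of 400 nt or more and Chd7 has 4, and each gene had 5 midpoints in them, while Chd8 and Chd9 have 2 such exons and had 2 midpoints each. Chd1 and Chd6 to Chd9 shared a pair in the coding part of the last exon. Its fold enrichment in replicates 1 and 2 was 5.88 and 3.06 in Chd1, 5.89 and 4.11 in Chd6, 6.23 and 2.82 in Chd7, 4.17 and 4.17 in Chd8, and 5.92 and 3.62 in Chd9. All 5 were above the medians of 3.17 and 2.18 over all pairs of these genes. Chd2 and the ATPases of the NuRD deacetylase complex, Chd3, Chd4 and Chd5, had no midpoint there and had instead 1 each in the 3′ UTR. In Chd2, Chd3 and Chd4 that interval also covered the whole coding part of the last exon. In Chd5 the last exon of the representative transcript holds no coding sequence. The difference between these paralogs thus rests on the midpoint rule and the annotation.

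In Chd5 the intervals ran along the start of the coding sequence, with a matched pair centred in each of exons 1 to 7. Their fold enrichment lay between 2.63 and 4.49 in replicate 1 and between 1.40 and 2.27 in replicate 2. A second run lay in exons 33, 34 and 35, and between exons 13 and 33 no midpoint was placed. In Chd2 the runs were exons 4 to 7 with exon 9, and exons 29, 31, 33 and 34. The pair in Chd2 exon 6, an exon of 108 nt, had 6.78 in replicate 1 and 3.90 in replicate 2, and the one in the 3′ UTR next to the stop codon had 7.42 and 2.51.

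Smarca2 (Brm) and Smarca4 (Brg1), the alternative ATPases of the BAF complex, showed a similar layout. Smarca2 had 10 of 11 placed intervals in internal exons under 400 nt and Smarca4 6 of 7. In Smarca2 these were exons 7 to 10, 25 to 28, and 32 and 33, and in Smarca4 exons 6, 9, 14, 28, 29 and 33. By the smaller of both values, the strongest pair was in exon 9 of Smarca2 (5.62 and 2.56) and on residues 532 to 604 of Smarca4 (5.17 and 3.54). The latter had its midpoint in the intron between exons and was therefore not placed. Among the scaffold subunits, Smarcc2 had 8 intervals and Smarcc1 6, while the Smarcd genes had 1 or 2 each. Processed pseudogenes of Smarca5 and Smarce1 and an unprocessed one next to Kdm4d are annotated, so that reads of these 3 genes may be divided among copies, and their values are uncertain.

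**Figure D4:**
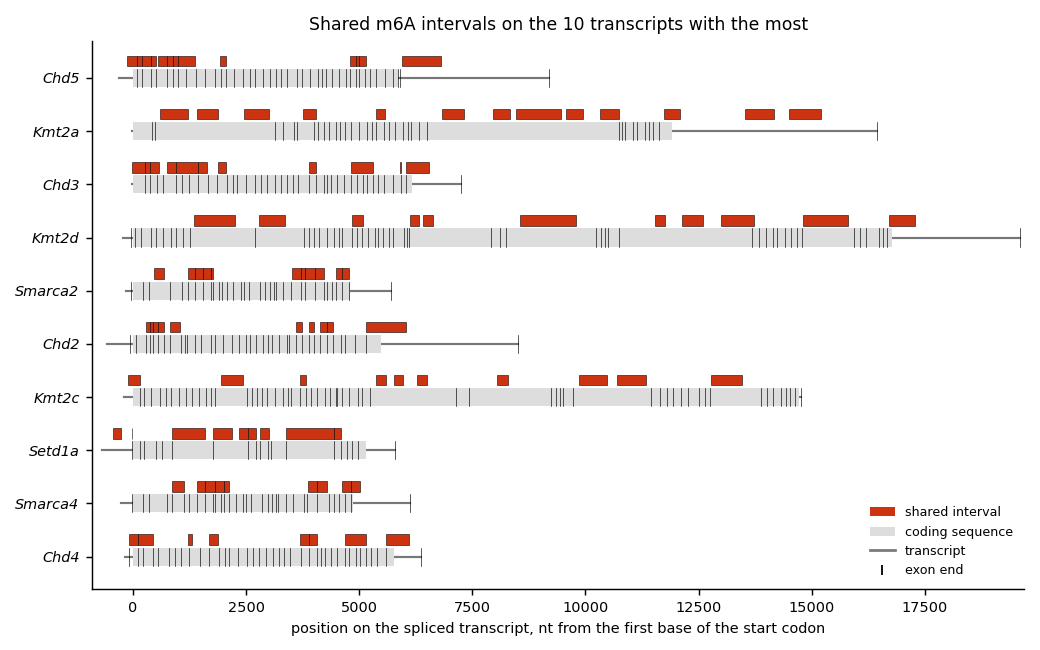
Spliced representative transcripts of the 10 genes with the most shared intervals, with position in nt from the start codon on the horizontal axis. Red boxes are shared intervals, grey boxes the coding sequence and black ticks exon ends. In Kmt2a, Kmt2c and Kmt2d the boxes lie over wide stretches without ticks, and in Chd5, Chd2 and Smarca2 they lie over runs of short exons.

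Of the demethylases with several matched pairs, 7 had one within 200 nt of the stop codon (in Kdm7a both were), and in 6 of the 7 the strongest pair by the smaller of both values lay there. The exception was Kdm4b, where a pair at 146 nt into the 3′ UTR (3.54 and 2.57) was weaker than one at 850 nt (4.99 and 3.19). The same count was not made over all genes or in the other families. Over all genes, pairs in the 3′ UTR within 200 nt of the stop codon had medians of 3.30 and 2.56. Pairs in the coding part of the last exon had 3.85 and 2.74 over all genes, and all pairs together 2.97 and 2.29. Strong pairs near the stop codon are thus not particular to the demethylases. Kdm3b had no pair that close, and its nearest, in exon 21, had 1.58 and 1.52. Kdm2b, a CpG island reader, had 7.18 in replicate 1 and 3.48 in replicate 2 at 36 nt into the 3′ UTR. Kdm5c, a gene of X-linked intellectual disability, had 4.60 and 3.32 at 56 nt, Kdm4a had 4.48 and 3.03 at 39 nt, Kdm2a had 4.45 and 3.40 at 54 nt and Kdm7a had 4.50 and 3.23 at 160 nt. In Kdm5a the pair was centred in the last codons, 14 nt before the end of the coding sequence, with 3.85 and 4.10. Kdm6b (Jmjd3) had both of its intervals in exon 11, of 2168 nt, the stronger with 6.80 and 3.50 and the weaker with 3.31 and 1.97. Its X-linked paralog Kdm6a (Utx) had 3 intervals over exons, none above 2.85 in replicate 1.

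The deacetylases had the fewest intervals, 21, and the lowest median fold enrichment of the families, 2.57 in replicate 1 and 1.91 in replicate 2. The best pair was in the 3′ UTR of Hdac4, a class II deacetylase that shuttles out of the nucleus in neurons, with 5.23 in replicate 1 and 4.30 in replicate 2. Hdac9, of the same class, had 5.69 and 2.66 in exon 11. Hdac1 and Hdac2, the nuclear class I enzymes, differed in place. Hdac1 had a single pair in exon 1, with 3.58 and 1.81, and Hdac2 had pairs in exons 12 and 13, just before the stop codon, with 4.04 and 2.18 and with 3.64 and 1.91. In Hdac5 replicate 1 had 5 peaks and replicate 2 had 11, and none of its 5 matched pairs exceeded 2.36.

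Fold enrichment was compared over 257 matched pairs, that is, peaks that overlapped each other more than any other peak of the opposite list. The median was 3.17 (quartiles 2.23 and 4.07) in replicate 1 and 2.18 (1.81 and 2.71) in replicate 2, against 2.97 and 2.29 over all genes. Replicate 1 had the higher value in 210 of these 257 pairs (81.7%), as in 78.3% of pairs over all genes, so that single values carry an offset between replicates of about 1.42 times in the median. No pair differed by more than 2.95 times. Across the 257 pairs Spearman's rho was 0.610 and Pearson's r of the log2 values 0.614, as a description over pairs that come from the same libraries and in part from the same genes.

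Pairs in the coding part of the last exon were the strongest in both replicates, with medians of 5.32 and 3.09 (n = 15). Pairs in internal exons of 400 nt or more had 3.54 and 2.49 (n = 62), and pairs in the 3′ UTR within 200 nt of the stop codon 3.54 and 2.54 (n = 17). Pairs in first or single coding exons had 3.001 and 2.22 (n = 7), pairs in internal exons under 400 nt 2.65 and 1.96 (n = 104) and pairs in the 5′ UTR 2.48 and 1.87 (n = 14). Pairs farther on in the 3′ UTR had 2.44 and 2.30 (n = 14), the lowest median in replicate 1 but not in replicate 2. Over all genes the coding part of the last exon was also the highest, with 3.85 and 2.74, and short internal exons the lowest, with 2.36 and 1.84. The difference between exon classes was also seen within genes. In 20 of these genes pairs lay both in internal exons under 400 nt and in longer internal exons or the coding part of the last exon. The median of the latter was higher in 18 genes in replicate 1, in 18 in replicate 2 and in 16 in both, against 81.7%, 82.1% and 71.9% of 955 genes over the whole annotation.

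**Figure D5:**
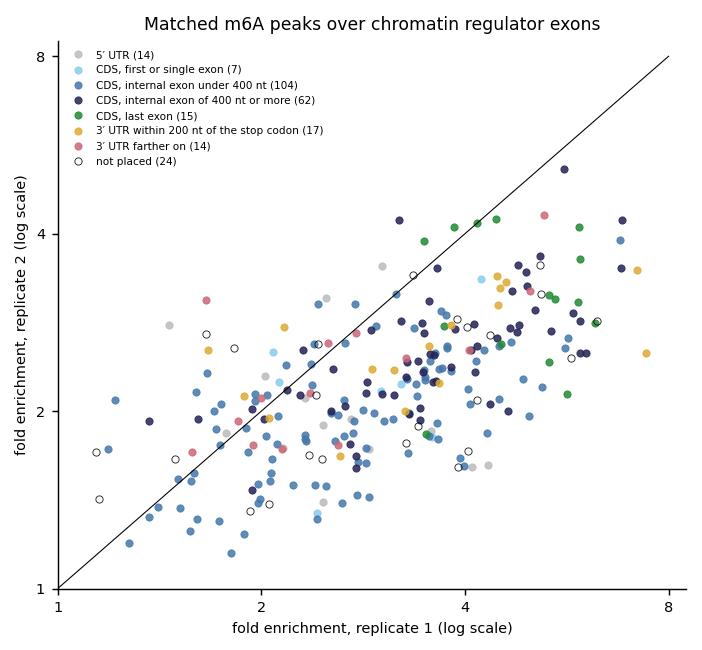
Fold enrichment of IP over input of 257 matched peak pairs in replicate 1 (horizontal) and replicate 2 (vertical), both on log scales, coloured by position class with the number of pairs in brackets; the line marks equal values. Most points (210) lie below the line, and the 15 pairs in the coding part of the last exon sit toward the upper right.

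The sequence GGACT was present in 99 of the 247 placed intervals (40.1%, 34.2 to 46.3), against 43.1% over all genes, and the shorter GGAC in 83.4%, against 82.0%. Only the transcript strand was searched, and every GGACT is also a GGAC. The search ran over the genomic span of each interval, so that intron bases within it were included. These shares are close to those of all genes. By family GGACT was in 43 of 88 methyltransferase intervals (48.9%), 18 of 37 of the demethylases (48.6%), 25 of 67 of the Chd genes (37.3%), 11 of 39 of the Smarc genes (28.2%) and 2 of 16 of the deacetylases (12.5%, 3.50 to 36.0). These family shares are not of mRNA sequence alone. The 11 Smarc intervals stand beside 9 GGACT of Smarc mRNAs that lay in shared intervals. Where the exon was internal and under 200 nt, a median of 38.2% of the interval lay in the exon. The intervals also differed in length between families, from a median of 381 nt in the methyltransferases to 276 nt in the deacetylases. In windows of a fixed 100 nt GGACT was in 22 of 88 methyltransferase intervals (25%), 7 of 37 of the demethylases (18.9%), 9 of 67 of the Chd genes (13.4%), 1 of 39 of the Smarc genes (2.56%) and 0 of 16 of the deacetylases (upper Wilson bound 19.4%), which is the same order.

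Read from the side of the sequence, the same pentamer was covered or not according to its exon. The mRNAs of the 68 genes held 439 GGACT, of which 143 (32.6%) lay in a shared interval, against 16.9% over all genes. In internal exons of 400 nt or more 69 of 84 (82.1%) were covered, and in internal exons under 400 nt 19 of 200 (9.50%), against 44.3% and 3.66% over all genes. The density of GGACT rose far less with exon length. It was 0.984 per kb in exons under 200 nt, 1.12 from 200 nt to under 400 nt, 1.21 from 400 nt to under 1000 nt and 1.30 in those of 1000 nt or more. Shared intervals themselves took up 9.37% of the bases of exons under 200 nt and 56.8% of those of exons of 1000 nt or more. In the longest class 48 of 58 GGACT (82.8%) lay in those 56.8% of the bases. In exons under 200 nt, 11 of 146 GGACT (7.53%) lay in the 9.37% of the bases that were covered.

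Genes of the same complexes and other histone-modifying enzymes were looked at as a second list. Of 69 such genes, among them Ezh2, Arid1a, Crebbp, Ncor1 and Sirt1, 66 (95.7%) had a shared interval, against 45.5% of all genes, with a median of 3 intervals per gene, against 0 over all genes and 2 over all genes with any. Actl6a, a BAF subunit, Ss18l1 and Mta2, a subunit of NuRD, had none. The share in this second list was thus as high as in the 68 genes chosen by symbol.

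Because the library kit does not mark the strand, reads of a gene and of a transcript on the other strand cannot be told apart. Of the 257 pairs, 25 also lay within the annotated body of another gene, among them the 7 of Setd1b, which lie within Gm26745 on the opposite strand, and 4 of Chd8 within Gm26590. The values of the Setd1b pairs and of the printed Kmt5b and Chd8 sites carry this limit.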

How the data were processed

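m6A-seq peaks of 2 IP replicates of mouse whole brain were used, and the 2 input samples entered only through the enrichment. According to the methods, the authors aligned reads to mm10 with TopHat (TopHat2 2.0.9 in the submitters' processing notes, another version in the methods), kept unique alignments and called peaks with MACS2 for each IP against its own input. The deposited values are start and end positions and the fold enrichment, a linear ratio. They hold no counts, strand or p-value, so that depth is unknown.

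Peaks were laid over GENCODE M21 on GRCm38.p6, which has the same chromosomes as mm10. All peaks ended within their chromosomes, and ATG was read at 98.2% of annotated starts. Each gene was represented by its transcript with the longest CDS. Shared intervals were the bases common to peaks of both replicates (at least 1 bp), 23901 from 38533 and 30134 peaks. Their midpoints were placed on representative exons, leaving out midpoints in exons of several genes (267, of which 2 over exons of the chromatin regulators). Shares have 95% Wilson intervals. Python 3.11.15, numpy 2.4.6, scipy 1.17.1 and pysam 0.24.0 were used, and the scripts were tested on simulated data.

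The genes, families, partner list and markers were chosen with earlier results of these data known. Named genes were the 10 with the most intervals, the 10 best pairs by the lower fold, genes without shared intervals, and the Kmt2, Chd, Smarca2 and Smarca4 paralogs. The genes of the demethylase and deacetylase paragraphs, the coverage of exons and the comparison within genes were added after the values were seen. Alternatives were the overlap rule, a fold minimum, peak merging, transcript choice, windows, motif and each replicate alone. 1 of the printed-site candidates and 1 gene of the partner list are not reported here.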

Additional observations from a re-analysis of the deposited data

How the results depend on the processing

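Of 71 alternative values over 10 results, 57 were counted as the same, 14 as moved and 0 as reversed. Being counted as the same did not mean an equal value. With a fold enrichment of at least 2, the share of occupied long internal exons went from 85% to 75% and was so counted. With overlap of at least 50% of both peaks the shared shares were 64.3% in replicate 1 and 70.9% in replicate 2, and with midpoints within 100 bp they were 63.5% and 69.9%. With a fold enrichment of at least 2, 153 intervals remained and the replicate 1 share was 52.0%. Counting any overlapping base gave 90.7% in the CDS and 18.2% near the stop codon, where windows of 100 nt and 400 nt gave 7.69% and 18.2%. For long internal exons, bounds of 300 nt and 1000 nt gave 68.6% and 100%. GGAC in place of GGACT gave 83.4%, and a window of 100 nt 15.8%. With either replicate alone, the genes with a peak were 63 and 63, the peaks 326 to 359, the CDS share 79.9% to 83.0%, the stop codon share 11.2% to 12.2%, the occupied long exons 86.7% to 90.0% and the GGACT share 39.8% to 40.5%. No paired analysis was possible because no result comes from a test, and the input samples, which carry the same replicate numbers as the IP samples, enter only through the fold enrichment. What depth limits could not be measured from lists without counts.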

Other observations

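Some peaks lay in the gene bodies of the chromatin regulators without touching an exon. Replicate 1 had 29 of them in 16 genes, of which 9 overlapped a replicate 2 peak, and replicate 2 had 9 in 7 genes, all 9 of which overlapped a replicate 1 peak. The median fold enrichment was 3.16 in replicate 1 and 3.61 in replicate 2. The strongest shared peak was in an intron of Chd9, with 7.70 in replicate 1 and 4.12 in replicate 2, and a second one in Chd9 had 4.41 and 3.95. Kdm6a had 1 with 4.03 and 4.09, Kmt2a 1 with 3.76 and 3.61, Hdac5 1 with 4.07 and 2.14 and Setd4, which had no shared interval over exons, 1 with 2.00 and 2.63. Smarca2 had 2, the stronger with 4.24 and 2.39. The peak in Hdac8, with 4.04 and 4.00, also lies in the annotated gene Gm14858, so that its source cannot be told apart.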
